A study of Homo sapiens with 24 samples.

Results

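The proteasome genes of PPC1 cells, an established prostate cancer cell line, were examined in untreated cells and in the polyploid giant cancer cells (PGCC) made from them by irradiation. The members were the rows of the deposited count table with the gene type protein_coding and a symbol of the form PSMA, PSMB, PSMC, PSMD or PSME followed by a number, except PSMB8 and PSMB9. This gave 43 of the 48162 rows, for 42 symbols, since PSMA1 was listed as 2 gene models. There were 24 libraries in 4 conditions of 6: untreated parental cells (UT), untreated cells given LCL521 (UT_LCL), PGCC, and PGCC given LCL521 (PGCC_LCL). All were PPC1 cells plated on day 1 and harvested on day 5. PGCC and PGCC_LCL were made with 8 Gy of radiation on day 2 and captured on a 20 micron strainer, whereas UT and UT_LCL received no radiation and were not passed over the strainer. Irradiation and size selection can therefore not be told apart in any comparison of PGCC with parental cells. LCL521, a pro-drug that inhibits acid ceramidase (ASAH1), was given at 5 µM for 5 h before harvest.

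The proteasome is the large protease that degrades proteins tagged with ubiquitin. Its core, the 20S particle, is a barrel of stacked rings of α subunits (PSMA genes) and β subunits (PSMB genes), and the proteolytic sites lie on the β subunits encoded by PSMB5, PSMB6 and PSMB7. The 19S particle caps the core: its ATPases (PSMC genes) unfold the substrate and its other subunits (PSMD genes) bind ubiquitin and remove it. Alternative caps, the activators PA28 (PSME1 with PSME2, or PSME3 alone) and PA200 (PSME4), open the core without ubiquitin recognition. When proteasome activity is low, the transcription factor NRF1, encoded by NFE2L1, is known to raise subunit transcription through antioxidant response elements in subunit promoters, and interferon is known to raise PSME1, PSME2 and the inducible subunit PSMB10. PSMC3IP, which the symbol rule takes in, encodes a homologous recombination factor and no subunit, so it is given apart.

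Promoter sequence was looked at for the members that differed most between PGCC and UT, because 3 of the 4 activator genes rose and several core and 19S genes fell. The RefSeq promoter table (GRCh38.p14) held windows for 37 of the 42 symbols, 44 windows in all, and had no entry for PSMA7, PSMB1, PSMB6, PSMB7 and PSMD4. Motifs were searched on both strands in the 250 bases before each annotated start. Some of these bases lie in untranslated regions that GENCODE annotates for a transcript on either strand. Such regions covered all 250 bases for PSME2 and PSME4 and 133 for PSMC2. For PSMD6, PSMD7 and PSME1 they covered 66, 39 and 36 bases. The antioxidant response element core, TGACNNNGC, was in 22.7% of the members' windows and in 10.9% of all 35116 windows. Of the 10 member genes that held it, PSME1, PSME2 and PSME4 rose between PGCC and UT and PSMA4 fell. The others, PSMB3, PSMC5, PSMD3, PSMD5, PSMD9 and PSMD12, were not called in the main fit. The interferon-stimulated response element core, GAAA and GAAA with any 2 bases between, was in 9.09% of members' windows (PSMA4, PSMB4, PSMB10 and PSME2) against 3.02% of all. Of these genes PSME2 rose between PGCC and UT, PSMA4 and PSMB4 fell, and PSMB10 was not called. The ETS family motif CCGGAAG was in 22.7% against 8.52%, CCAAT in 43.2% against 32.0%, and the interferon-γ-activated site TTCNNNGAA in 13.6% against 6.57%. The windows of PSMD2 and PSMA6, which rose, and of PSMA1, which fell, held none of these motifs. The sites of the 3 activator genes that rose and of the 3 19S subunit genes that fell are printed below on the strand of the gene, with the motif in capitals. A position counts back from the annotated start to the first base of the motif.
PSME1, antioxidant response element, 86 bases before the start, chr14:24136098-24136127, plus strand: atggcagggcTGACCCCGCctcctccatcc
PSME2, antioxidant response element, 175 bases before the start, chr14:24146766-24146795, minus strand: ccctggactgTGACCCAGCcagcaccgcct
PSME2, interferon-stimulated response element, 28 bases before the start, chr14:24146619-24146648, minus strand: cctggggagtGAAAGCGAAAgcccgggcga
PSME4, antioxidant response element read on the other strand, 34 bases before the start, chr2:53971008-53971037, minus strand: cccggcggctGCAGCGTCAccagcagagcc
PSME4, ETS motif, 80 bases before the start, chr2:53971055-53971084, minus strand: cccgccccgccCCGGAAGtgacttgaggcc
PSMC2, CCAAT, 31 bases before the start, chr7:103347600-103347629, plus strand: gtctgtctgagcCCAATttacttccggtgg
PSMC2, ETS motif read on the other strand, 23 bases before the start, chr7:103347609-103347638, plus strand: agcccaatttaCTTCCGGtggggaagggaa
PSMD6, ETS motif, 37 bases before the start, chr3:64023513-64023542, minus strand: cggagacgggaCCGGAAGccgggccgcagg
PSMD6, CCAAT read on the other strand, 192 bases before the start, chr3:64023669-64023698, minus strand: gagattcaagaaATTGGgcttttgagttgg
PSMD7, CCAAT, 198 bases before the start, chr16:74296604-74296633, plus strand: tgacggtacaggCCAATaccaggaggtcaa
The ETS motif was thus in a gene that rose, PSME4, as well as in genes that fell, and in the PSMC2 window it lay clear of CCAAT. These matches describe the letters of each window. No binding was measured, and none of the motifs was searched for outside the 250 bases.

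Total counts lay between 14835246 and 19906601 per library. Of the 43 rows, 40 passed the filter on low counts in every comparison. The 3 that did not were PSMA8, the testis form of an α subunit, with 1 count in 1 of 24 libraries; PSMB11, the thymic β subunit, with at most 2 counts and 0 in 19 libraries; and the second PSMA1 model, with 0 counts in all 24. A count of 0 allows up to 3 counts, which corresponded to between 0.150 and 0.207 CPM (counts per 1000000, with library sizes scaled by TMM factors), so low expression of PSMA8 and PSMB11 was not detectable at this depth. The second PSMA1 model lies wholly within the first on the same strand. How reads in shared exons were assigned is not given, so its 0 counts set no such limit. Of the epithelial markers, KRT8 was at 56.4 to 87.1 CPM in UT and at 144 to 222 in PGCC and KRT18 at 184 to 268 and 150.1 to 196, while EPCAM was at most at 0.851. Of the prostate luminal markers HOXB13 was at 569 to 882 CPM in UT and at 307 to 547 in PGCC, without overlap (log2 fold change -0.80, edgeR adjusted p = 0.000213), and KLK2, KLK3 and FOLH1 had no counts. CD3E, a T cell marker, had at most 1 count in any library, and the leukocyte markers summed to 0.464 to 2.97 CPM in UT and to 2.84 to 4.43 in PGCC, most of it PTPRC. The 3 fibroblast markers summed to 49.8 to 133 CPM in UT and to 79.0 to 205 in PGCC, most of it COL1A2, with PDGFRB at most at 0.472. The 5 proliferation markers summed to 97.3 to 329 CPM in UT and to 685 to 911 CPM in PGCC. Their part in the proteasome values was not tested, and in bulk RNA fewer cells of a type and less RNA per cell cannot be told apart. The replicates numbered 4 and 5 stood apart from the other 4 on the second principal component in every condition, so each comparison was also made without them and within them.

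Per kilobase of gene length, the constitutive β subunits had the highest median level of the roles in UT cells. The order ran from PSMA7, an α subunit, with a median of 349 CPM per kb, over PSMB7 at 296, PSMB6 at 219 and PSMB5 at 202, down to PSME4 at 18.4 and PSMA1 at 8.07. The 7 constitutive β subunits had a median of 157 CPM per kb (47.8 to 296) and the 6 ATPases 71.4 (32.5 to 96.2). Leaving out rows that lie mostly under another gene model 10 non-ATPase subunits had 54.1 (18.7 to 172) and 5 α subunits 51.5 (8.07 to 349). The 4 activators had 49.3 (18.4 to 76.8). PSMA7 in UT (256 to 364 CPM per kb) overlapped PSMB7 (262 to 321), so the first places of this order lay within the spread between libraries. At the bottom were PSMC3IP (1.58), PSMD9 (1.47), PSMB10 (1.21), PSMA2 (0.681) and PSMA6 (0.150).

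PSMA6 and PSMA2 encode obligatory α subunits, yet PSMA6 had only 9 to 29 counts in UT libraries and PSMA2 24 to 59. Both share their position with another gene model on the same strand: KIAA0391 covered 99.95% of the span of PSMA6 and DKFZP686D09174 covered 99.7% of that of PSMA2. In total, 6 rows had another model on the same strand over more than 50% of their span, these and the second PSMA1 model, PSMD9, PSMB10 and PSMD2. Their median level was 0.948 CPM per kb, against 58.2 in the 34 other rows of subunits with counts, whose range was 8.07 to 349. PSMD2, all of whose span lies under a model of EIF2B5, was an exception at 132 CPM per kb. The levels and changes of these 6 rows, and of PSMA1, 17.7% of whose span lies under its second model, are uncertain, since the sources used here do not say how reads in shared exons were assigned. The plot of level against overlap shows these members apart from the others.

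**Figure D1:**
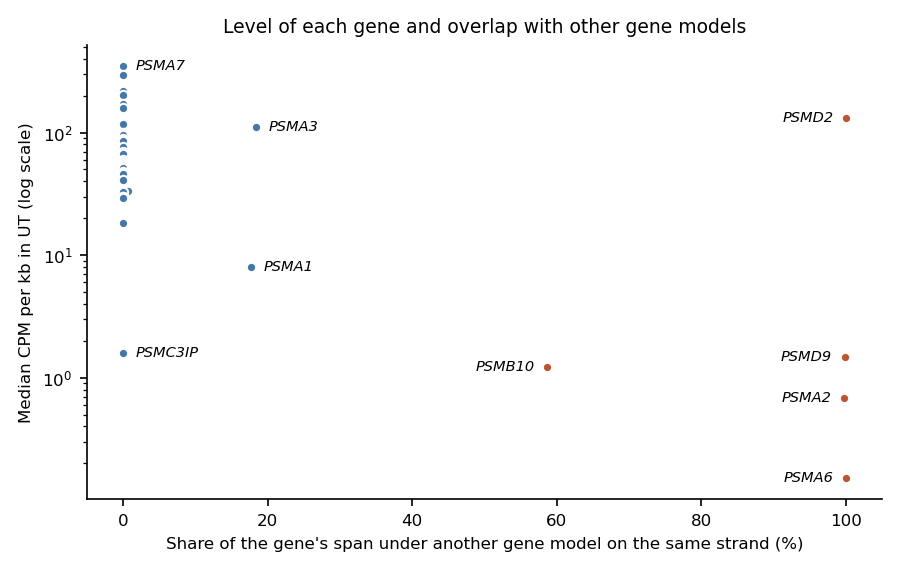
Median level of each member in UT cells (CPM per kb of gene length, log axis) against the share of its span covered by the gene model that overlaps it most on the same strand; 1 point is 1 member with a median above 0, red where the share is above 50%. PSMA6, PSMA2, PSMB10 and PSMD9 lie between 0.150 and 1.47 CPM per kb, whereas PSMD2 lies at 132.

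To ask how radiation-derived PGCC differ from parental cells, PGCC was compared with UT. Of the 40 members tested, 6 rose and 10 fell (edgeR quasi-likelihood test, Benjamini-Hochberg adjusted p under 0.05 over 13812 genes). Over all genes 47.4% were called, 23.1% higher and 24.3% lower. Of the members 40.0% were called, 15.0% higher and 25.0% lower. Without PSMC3IP, 5 of the 39 rose and 10 fell. The median log2 fold change of the 39 was -0.09, with 26 below 0, whereas the median over all genes was -0.03 with 52.2% below 0. In absolute size the median member differed by 0.17 on the log2 scale and the median gene by 0.37. When libraries were scaled by their totals only, 8 members were called higher and 4 lower, against 45.9% of all genes (27.6% higher and 18.3% lower). This moved the median of the 40 members from -0.09 to 0.003 and that of all genes from -0.03 to 0.07. The rises of PSME4, PSME2, PSME1, PSMD2, PSMA6 and PSMC3IP and the falls of PSMA1, PSMC2, PSMD6 and PSMD7 were called with both scalings. The rises of PSMB3 (log2 fold change 0.23, adjusted p = 0.048) and PSMD4 (0.26, adjusted p = 0.00992) were called with library totals and not with TMM factors, while the falls of PSMB4, PSMB6, PSMB7, PSMA4, PSMD10 and PSME3 kept their direction but were not called with library totals.

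Among the roles, the 4 activator genes had the largest median log2 fold change, 0.49, with 3 rises and 1 fall. PSME4 (PA200, a nuclear activator linked to histone degradation; chr2:54091204-54197977 in hg19, the build named in the submitters' processing notes) was at 112 CPM in the lowest UT library, 131 in the median and 141 in the highest. In PGCC it was at 213, 227 and 256 CPM, so that every PGCC library lay above every UT library. It rose 1.81-fold, with a log2 fold change of 0.86 (SE 0.08, n = 6 per group, edgeR adjusted p = 1.38e-06). PSME2 (PA28β; chr14:24612574-24616779), whose promoter sites are printed above, was at 69.8, 80.3 and 89.4 CPM in UT and at 122, 130 and 136 in PGCC. These ranges did not overlap, and the rise was 1.63-fold (log2 fold change 0.70, SE 0.07, edgeR adjusted p = 3.3e-06). PSME1 (PA28α), the partner of PSME2 in the same ring and its neighbour at chr14:24605367-24608176, was at 85.3, 87.2 and 98.9 CPM in UT and at 97.6, 108 and 118 in PGCC. Its ranges overlapped in the UT library of replicate 5, and its rise was smaller, 1.21-fold (log2 fold change 0.28, SE 0.07, edgeR adjusted p = 0.00439). PSME3 (PA28γ, the nuclear homologue that forms rings by itself) went the other way, from 156, 218 and 263 CPM in UT to 153, 167 and 184 in PGCC. It fell by 0.33 on the log2 scale (SE 0.11, edgeR adjusted p = 0.0211), the ranges overlapped, and the call was lost when replicate 2, 3 or 6 was left out (highest adjusted p = 0.0676).

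**Figure D2:**
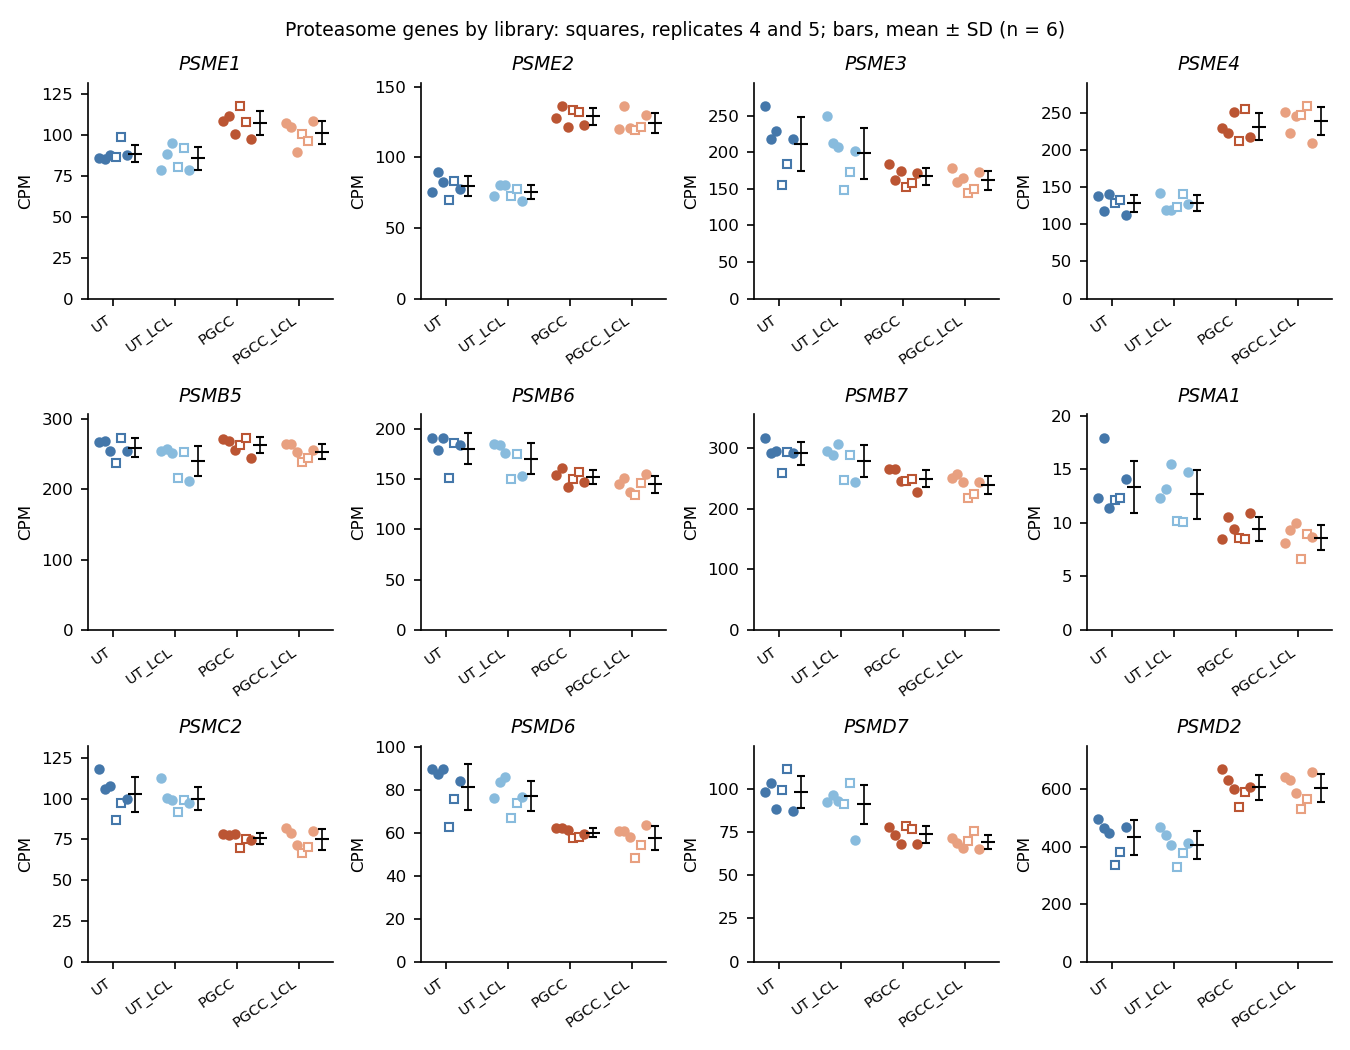
CPM of 12 members in each of the 24 libraries by condition, circles for replicates 1, 2, 3 and 6 and open squares for replicates 4 and 5, with the mean ± SD of the 6 libraries beside them; each panel has its own axis from 0. PSME2 and PSME4 lie higher in PGCC and PGCC_LCL than in every library of UT and UT_LCL, PSMC2 lies lower, and PSMB5 overlaps in all 4 conditions.

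Of the 7 constitutive β genes 3 fell and none rose, and their median log2 fold change was -0.14, or -0.05 with library totals. With library totals none of the 7 was called lower and PSMB3, a structural β subunit, was called higher. PSMB5, which carries the chymotrypsin-like site, was at 238, 261 and 273 CPM in UT and at 244, 265 and 273 in PGCC, a mean of 259 ± 13.0 (SD, n = 6) against 262 ± 11.0. Its log2 fold change was 0.02 with a 95% interval from -0.10 to 0.15 (edgeR adjusted p = 0.753). PSMB6, the caspase-like subunit, was at 151, 185 and 191 CPM in UT and at 142, 152 and 161 in PGCC. It fell by 0.24 on the log2 scale (SE 0.07, edgeR adjusted p = 0.012), with overlap through the UT library of replicate 4. PSMB7, the trypsin-like subunit, fell by 0.21 (SE 0.07, edgeR adjusted p = 0.0146), from 259, 293 and 318 CPM to 227, 248 and 266. The calls of PSMB6 and PSMB7 were lost without replicate 3 (adjusted p = 0.0615 for PSMB6 and at most 0.0541 for PSMB7, whose call was also lost without replicate 6). PSMB4, another structural β subunit, fell by 0.18 (adjusted p = 0.0305), and this call was lost without replicate 1, 3, 5 or 6 (highest adjusted p = 0.0948). The fold changes of PSMB1, PSMB2 and PSMB3 were -0.14, -0.02 and 0.14 on the log2 scale with TMM factors and did not pass the test.

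PSMB10, the inducible counterpart of PSMB7, had between 0.605 and 2.10 CPM in the 12 libraries of UT and PGCC. Its log2 fold change was -0.35 with an interval from -0.93 to 0.23 (edgeR adjusted p = 0.305), -0.70 in replicates 1, 2, 3 and 6 and 0.37 in replicates 4 and 5. Only 14 to 35 counts stood behind each UT value.

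Of the 7 α genes tested, 1 rose and 2 fell, with a median log2 fold change of -0.09 that became 0.01 with library totals. PSMA1 (chr11:14515329-14665181) was at 11.4, 12.3 and 18.0 CPM in UT and at 8.51, 9.01 and 11.0 in PGCC. The ranges did not overlap, and it fell by 0.50 on the log2 scale (SE 0.13, edgeR adjusted p = 0.00755). The second PSMA1 model lies within this row, with 1221 bases of gene length against 1527. Since that model had 0 counts, the fall of PSMA1 is uncertain. PSMA4 fell by 0.25 (SE 0.08, adjusted p = 0.0185), a call lost without replicate 3 or 5 (highest adjusted p = 0.0821). PSMA6 was at 0.522, 0.712 and 1.73 CPM in UT and at 1.35, 1.99 and 3.51 in PGCC. It rose 2.10-fold in the test (log2 fold change 1.07, SE 0.34, adjusted p = 0.0188), but from 9 to 29 counts in UT, in a gene model that lies under another, and not without replicate 1 or 3 (highest adjusted p = 0.0628). PSMA2, PSMA3, PSMA5 and PSMA7 had log2 fold changes of -0.01, -0.10, -0.09 and 0.05 and did not pass.

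Among the 19S genes, single subunits changed in each direction. Of the 6 ATPases only PSMC2 (Rpt1; chr7:102984701-103009842), shown above with its CCAAT box, passed the test. It was at 86.7, 103 and 118 CPM in UT and at 69.5, 76.4 and 78.6 in PGCC, without overlap, and fell by 0.43 on the log2 scale (SE 0.08, edgeR adjusted p = 0.000471). The other 5 ATPases had log2 fold changes from -0.19 (PSMC4) to 0.01 (PSMC6). Of the 11 non-ATPase subunits 1 rose and 2 fell. PSMD2 (Rpn1, the scaffold that binds ubiquitin receptors and shuttle factors) was at 338, 456 and 497 CPM in UT and at 538, 606 and 671 in PGCC. It rose 1.41-fold without overlap (log2 fold change 0.50, SE 0.09, edgeR adjusted p = 0.000624), and is one of the rows that lie under another gene model. PSMD6 (Rpn7) fell from 62.6, 85.8 and 89.8 CPM to 57.7, 60.4 and 62.4, and PSMD7 (Rpn8, the partner of the deubiquitinase PSMD14) from 87.4, 98.9 and 111 to 67.8, 75.1 and 78.3. Both pairs of ranges were separate, and the falls were 0.43 (SE 0.09, edgeR adjusted p = 0.00134) and 0.41 (SE 0.08, adjusted p = 0.0007) on the log2 scale. PSMD14 itself did not pass, at 0.01 on the log2 scale (adjusted p = 0.947). PSMD3, PSMD8, PSMD11, PSMD12 and PSMD13 lay between -0.14 and -0.05 and did not pass.

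PSMD10 (gankyrin), a chaperone of 19S assembly, fell by 0.27 on the log2 scale (SE 0.09, edgeR adjusted p = 0.0247), from 63.3, 72.1 and 86.1 CPM to 53.0, 61.4 and 66.7. This call was lost without replicate 2, 3 or 5 (highest adjusted p = 0.0801). The other chaperones, PSMD5 and PSMD9, had log2 fold changes of 0.09 and 0.27 and did not pass. PSMC3IP, the recombination factor, rose 2.92-fold (log2 fold change 1.54, SE 0.20, edgeR adjusted p = 2.43e-05), from 1.39, 2.24 and 2.89 CPM in UT to 5.23, 6.16 and 8.26 in PGCC, without overlap. Only 24 to 48 counts stood behind each UT value.

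Counted by library, 8 of the 40 members had no overlap between PGCC and UT. PSME4, PSME2, PSMD2 and PSMC3IP were higher, and PSMA1, PSMC2, PSMD6 and PSMD7 were lower. Over all genes 26.8% did not overlap, 13.9% higher and 12.9% lower. Within experiments, the PGCC library lay above the UT library of the same number in all 6 pairs for 7 of the 39 members other than PSMC3IP, and below it in all 6 for 12. The share of all genes with such pairs was not determined, so these counts do not set the members apart from other genes. When replicate numbers entered the edgeR fit as a block, the members called increased from 16 to 19 (7 higher and 12 lower, against 56.2% of all genes). The block added PSMD4 (Rpn10, a ubiquitin receptor), with a log2 fold change of 0.16 (adjusted p = 0.0376 with the block and 0.0964 without), PSMD1 (adjusted p = 0.0269 and 0.0831) and PSMC4 (adjusted p = 0.0415 and 0.0922). Leaving out replicate 3 reduced the members called to 9, against 40.1% of all genes.

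**Figure D3:**
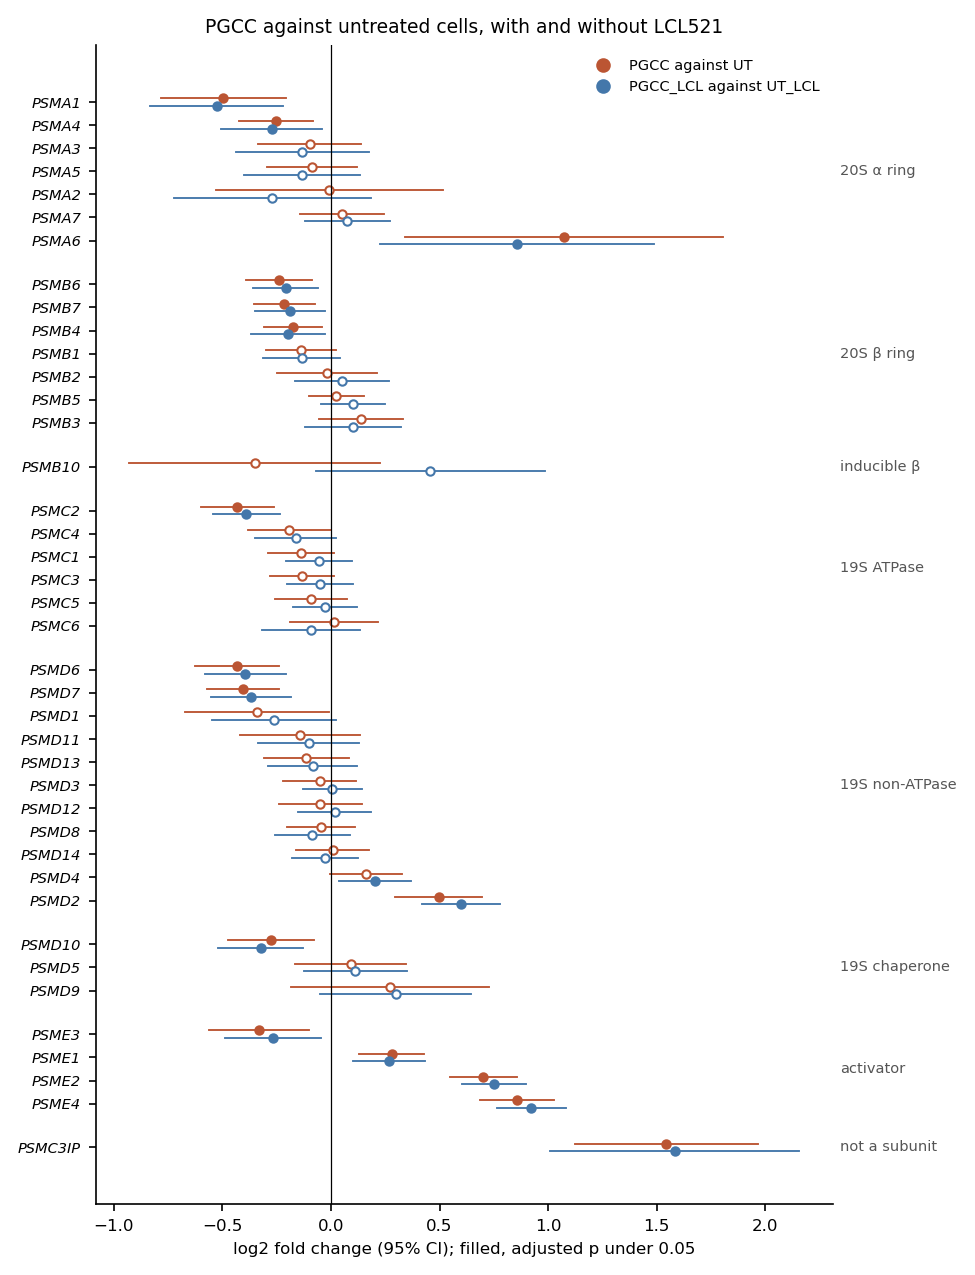
Log2 fold change with its 95% interval of each of the 40 members tested, by role in the particle, for PGCC against UT (red) and PGCC_LCL against UT_LCL (blue); filled points have an edgeR adjusted p under 0.05. PSME4, PSME2 and PSMD2 lie right of 0 and PSMA1, PSMC2, PSMD6 and PSMD7 left of 0 in both, whereas most β, ATPase and non-ATPase genes lie within 0.2 of 0.

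The replicates that stood apart differed from the rest in their proteasome values. The members other than PSMC3IP took 0.461% to 0.508% of all counts in the UT libraries of replicates 4 and 5 and 0.557% to 0.573% in the other UT libraries. In PGCC these shares were 0.539% to 0.579% and 0.571% to 0.588%. The median of the 39 members between PGCC and UT was -0.15 on the log2 scale in replicates 1, 2, 3 and 6 and 0.06 in replicates 4 and 5. In replicate 4, 14 of the 39 members were below 0, and in replicate 1, 31 were. PSMD1 (Rpn2, the other large scaffold of the base) shows the pattern: it was at 179 to 205 CPM in the UT libraries of replicates 1, 2, 3 and 6 and at 107 and 111 in those of replicates 4 and 5, while PGCC was at 107 to 140 in all 6. Of the activators, PSME3 also differed less within replicates 4 and 5, at -0.13, than without them, at -0.41. The other 3 activators were higher in PGCC in both sets: PSME4 at 0.87 without replicates 4 and 5 and 0.84 within them, PSME2 at 0.66 and 0.80, and PSME1 at 0.29 and 0.28. Within replicates 1, 2, 3 and 6 alone 19 of the 40 members were called, against 54.6% of all genes, and within replicates 4 and 5 alone 12, against 45.7%.

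**Figure D4:**
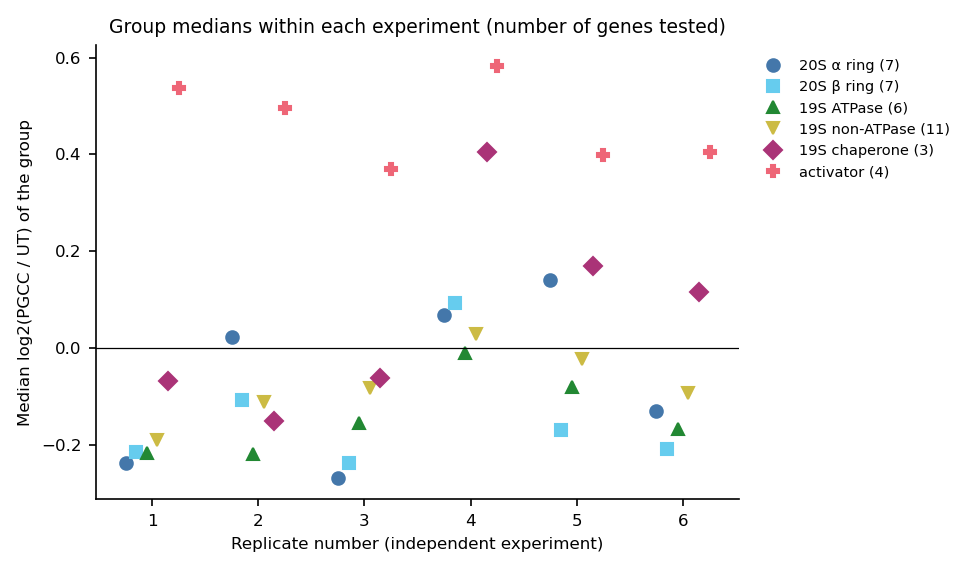
Median log2 difference between the PGCC and the UT library of the same number for each group of members, by replicate number; the legend gives the number of genes in each group. The activators lie between 0.37 and 0.58 in all 6 experiments, and the ATPases between -0.22 and -0.01, while the α genes lie on both sides of 0.

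With LCL521 in both arms, the same comparison was made in 12 other libraries from the same 6 experiments. Of the 40 members 7 rose and 10 fell, against 48.9% of all 13818 genes (25.0% higher and 23.9% lower). The 16 members called between PGCC and UT were called here with the same sign, 100.0% of those and 94.1% of these, and PSMD4 was called in addition (log2 fold change 0.20, SE 0.08, edgeR adjusted p = 0.0423, lost when any replicate except 5 was left out, with a highest adjusted p of 0.145). The same overlap of calls over all genes was not determined, so these percentages do not set the members apart. PSME4 was at 119, 126 and 142 CPM in UT_LCL and at 211, 247 and 260 in PGCC_LCL, a log2 fold change of 0.92 (SE 0.07, adjusted p = 2.93e-07). PSME2 rose by 0.75 (SE 0.07, adjusted p = 1.07e-06), from 68.9, 75.2 and 80.6 to 119, 121 and 136 CPM. PSMD2 rose by 0.60 (SE 0.08, adjusted p = 4.66e-05). PSMA1, PSMD6, PSMC2, PSMD7 and PSMD10 fell by 0.53, 0.39, 0.39, 0.37 and 0.32 on the log2 scale.

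Of the 7 constitutive β genes 3 fell and none rose, and with library totals none was called. PSMB6, PSMB4 and PSMB7 fell by 0.21, 0.20 and 0.19 (adjusted p = 0.0241, 0.0496 and 0.0485), and PSMB5 had a log2 fold change of 0.10 with an interval from -0.04 to 0.25. These 3 falls, those of PSMA4 and PSME3, and the rises of PSMD4, PSMA6 and PSME1 were each lost without some replicate. The highest adjusted p was 0.0947 for PSMB6, 0.172 for PSMB4, 0.15 for PSMB7, 0.217 for PSMA4, 0.12 for PSME3, 0.105 for PSMA6 and 0.0633 for PSME1. Leaving out replicate 1, 2 or 3 gave 10 members called, against 43.3%, 42% and 41.5% of all genes, and leaving out replicate 5 gave 11, against 45.2%. Library totals gave 12, 7 higher and 5 lower, against 48.1% of all genes (27.6% higher and 20.5% lower), and the replicate block 19, against 56.3% of all genes. The ranges of 7 of the 40 members did not overlap, against 28.1% of all genes, and these were the members separated between PGCC and UT without PSMD7. The UT_LCL library of replicate 6, at 70.1 CPM, was the one that overlapped for PSMD7.

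LCL521 alone moved no member past the test. In UT_LCL against UT 0 of 40 members and 0 of 13277 genes were called (0% of all genes in edgeR, with 0 members and 71 genes at an unadjusted p under 0.05, and 0 of 40 members in DESeq2). With the replicate block 0.866% of all genes and 0 members were called at the adjusted threshold. With the block 10 members had an unadjusted p under 0.05. The share of all genes at that unadjusted threshold is not reported here, so the 10 cannot be set against 0.866%. The median member was at -0.07 on the log2 scale, with 32 of the 39 members below 0, and the median gene at -0.0002 with 50.1% below 0. The members with the smallest p were PSMB10, with a log2 fold change of -0.44 and an interval from -0.99 to 0.10, PSMC3 (Rpt5), with -0.12 and an interval from -0.28 to 0.04, and PSMB5, with -0.10 and an interval from -0.25 to 0.05. PSMC3 was at 128, 148 and 155 CPM in UT and at 118, 132 and 153 in UT_LCL, and its edgeR adjusted p was 0.169 with the block. The intervals given here come from the fit without the block, whereas the 6 pair differences of PSMC3 ran from -0.19 to -0.02 on the log2 scale. UT_LCL lay below UT in all 6 pairs for PSME3, PSMB10, PSMA7, PSMC3, PSMB5 and PSMD2, and above it in all 6 for none. The share of all genes with such pairs was not determined.

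In PGCC_LCL against PGCC, 0 of 40 members were called in edgeR, with 0 members at an unadjusted p under 0.05, and 0 in DESeq2. Over all 14151 genes 0.00707% were called, or 1.64% with the replicate block, where no member passed the adjusted test. With the block 6 members had an unadjusted p under 0.05. The share of all genes at that unadjusted threshold is not reported here, so the 6 cannot be set against 1.64%. The median member was at -0.05, with 37 of 39 below 0, whereas 49.2% of all genes were below 0. PSMD14 (Rpn11, the deubiquitinase of the lid) had the smallest p, with a log2 fold change of -0.10 and an interval from -0.25 to 0.04 (adjusted p = 0.128 with the block). It was at 130, 141 and 153 CPM in PGCC and at 114, 133 and 146 in PGCC_LCL. The intervals given here come from the fit without the block, whereas the 6 pair differences of PSMD14 ran from -0.19 to -0.03 on the log2 scale. PSMD8 (Rpn12) had -0.09 with an interval from -0.23 to 0.05, and PSMD7 -0.08 with an interval from -0.20 to 0.04. PGCC_LCL lay below PGCC in all 6 pairs for PSMB2, PSMD14 and PSMD7, and the share of all genes with such pairs was not determined. In replicate 6, 13 of the 39 members were below 0, and in the other replicates 28 to 35 were. Among the members that differed most between PGCC and UT, the LCL521 difference of PSME4 was 0.06 with an interval from -0.09 to 0.20, that of PSME2 -0.04 from -0.16 to 0.07, and that of PSMC2 -0.01 from -0.15 to 0.13. The intervals were wider for PSMC3IP, at 0.06 from -0.23 to 0.35, for PSMA1, at -0.12 from -0.37 to 0.14, and for PSMA6, at -0.15 from -0.72 to 0.42.

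**Figure D5:**
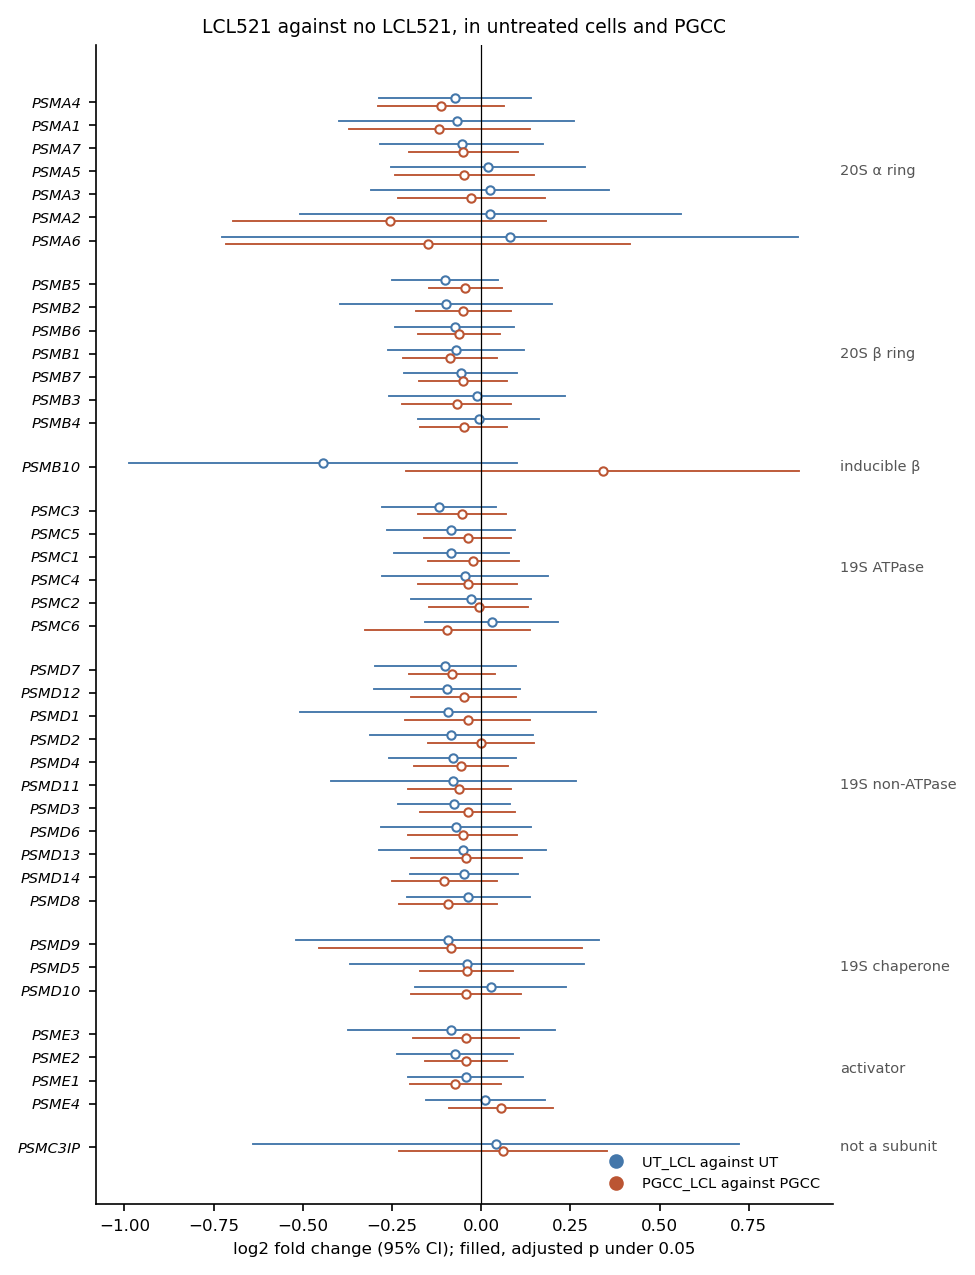
Log2 fold change with its 95% interval for LCL521 against no LCL521 in untreated cells (blue) and in PGCC (red), for the 40 members tested by role; no point is filled, since no adjusted p was under 0.05. Most points lie slightly left of 0, and PSMB10 lies at -0.44 in untreated cells and 0.34 in PGCC with wide intervals. All intervals are from the fit without the replicate block.

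The LCL521 difference in PGCC minus that in UT was tested as an interaction over all 24 libraries. For 0 of 40 members and 0 of 14555 genes (0%) was the edgeR adjusted p under 0.05, and the replicate block gave 0 as well. At an unadjusted p under 0.05 there were 60 genes, with 1 member among them, and DESeq2 called 0 members. That member was PSMB10, whose LCL521 log2 fold change was -0.44 in UT and 0.34 in PGCC. The difference was 0.78 with an interval from 0.03 to 1.54 (unadjusted p = 0.042, adjusted p = 1), at 0.605 to 2.13 CPM in all libraries. Leaving out 1 replicate gave differences of PSMB10 from 0.42 to 1.02. PSMC6 and PSMA2 followed with differences of -0.13 and -0.28, whose intervals ran from -0.42 to 0.17 and from -0.94 to 0.38. The median difference over the 39 members was 0.01.

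The rest of the ubiquitin and proteasome pathway was read from lists of genes that the symbol rule does not take in. Of 9 other subunit and assembly genes, among them ADRM1, SHFM1, the inhibitor PSMF1 and the assembly chaperones PSMG1 to PSMG4, POMP and PAAF1, 8 were tested between PGCC and UT and 0 were called by edgeR or DESeq2, with 0 at an unadjusted p under 0.05 in edgeR and log2 fold changes from -0.12 (POMP) to 0.19 (PSMG4, adjusted p = 0.0328 with the replicate block). Of 14 tested genes for enzymes and shuttle factors that dock on the proteasome 6 fell and 1 rose, so that 7 of 14 were called beside 47.4% of all genes. Among the falls were KIAA0368 (0.59 on the log2 scale), which encodes the adaptor ECM29, and DDI2 (0.49), the protease that activates NRF1. KIAA0368 was at 208, 247.5 and 298 CPM in UT and at 140, 167 and 185 in PGCC, without overlap (SE 0.09, edgeR adjusted p = 0.000177). ZFAND2A, a proteasome-binding stress protein, rose by 0.56. With LCL521 in both arms 5 of the 14 fell and none rose, beside 48.9% of all genes called, and ZFAND2A was at 0.33 (edgeR adjusted p = 0.0614).

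Of 10 genes of the NRF1 axis 2 rose and 2 fell between PGCC and UT, so that 4 of 10 were called beside 47.4% of all genes. MAFF, a small partner of NRF1, rose by 1.33 (SE 0.22, edgeR adjusted p = 0.000227) from 19.9, 24.4 and 52.3 CPM to 67.4, 74.9 and 88.2. UFD1L, a cofactor of the segregase VCP, rose by 0.61, and VCP fell by 0.26 (adjusted p = 0.0332, lost without replicate 2, 3 or 6, at most 0.106). NFE2L1, which encodes NRF1, was at 192, 230 and 421 CPM in UT and at 174, 190 and 222 in PGCC. It fell by 0.51 (SE 0.18, adjusted p = 0.032), but the log2 fold change within replicates 4 and 5 was -0.94 and without them -0.19, and the call was lost without replicate 1, 2, 4 or 5 (highest adjusted p = 0.105). With LCL521 in both arms 3 of the 10 rose, MAFF, UFD1L and MAFK, beside 48.9% of all genes called. None of the 10 was called lower, with NFE2L1 at -0.39 (edgeR adjusted p = 0.104) and VCP at -0.17 (adjusted p = 0.164). Of the 6 genes for ubiquitin and its activating enzymes 2 fell and 1 rose between PGCC and UT, so that 3 of 6 were called beside 47.4% of all genes. RPS27A, which encodes ubiquitin fused to a ribosomal protein, fell by 0.68, and UBA1, the main activating enzyme, rose by 0.31 (edgeR adjusted p = 3.67e-05 and 0.00122). With LCL521 in both arms 2 of the 6 fell and 2, UBA1 and the polyubiquitin gene UBB, rose, beside 48.9% of all genes called. Of the other subunit and assembly genes 0 of 8 were called there by edgeR or DESeq2, with 0 at an unadjusted p under 0.05 in edgeR. In UT_LCL against UT 0 of the 38 genes of these lists were called and in PGCC_LCL against PGCC 0 of 39, by edgeR and by DESeq2, with 0 and 1 at an unadjusted p under 0.05 in edgeR. That gene was MAFG, another small partner of NRF1, with a log2 fold change of 0.28 in PGCC_LCL against PGCC, which passed with the replicate block (edgeR adjusted p = 0.00578 with the block and 1.00 without).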

How the data were processed

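RNA was extracted from 6 independent experiments with 4 conditions each and sequenced by Novogene. Read counts per gene, whole numbers without normalization, were deposited by the authors after alignment with STAR and counting with HTSeq; strand use in counting is not given in the sources used here. The submitters' processing notes name hg19, whose coordinates are printed as listed.

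Genes were filtered with filterByExpr (minimum count 10, minimum total 15), scaled by TMM and tested with edgeR 4.0.16 in R 4.3.3 on the 12 libraries of each comparison, or on all 24 for the interaction. P-values were adjusted over all genes tested. CPM per kb divides CPM by the listed gene length. DESeq2 1.42.0 and the settings of the closing section were alternatives, and the tests were checked on simulated counts. Named members were the 6 largest rises and 6 largest falls past the threshold between PGCC and UT, PSMB5, PSMB6, PSMB7, PSMB10 and PSME1 to PSME4, and in each LCL521 comparison the members called or, with none, the 3 with the smallest p; other members are given by their fold changes, and PSMB3, PSMD1, PSMD4 and PSMC4 were singled out after their values were seen. The members and lists were chosen with earlier results of these data known.

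Replicate numbers come from the labels, which give a number and name no experiment. Libraries of the same number were taken to be from the same experiment, with the conditions harvested in parallel. Deviations from condition means of same-numbered libraries correlated in every pair, with medians of 0.344 (PGCC and UT), 0.272 (PGCC_LCL and UT_LCL), 0.652 (UT_LCL and UT) and 0.532 (PGCC_LCL and PGCC); the lowest was 0.171. The main fits have no block, since the study's methods name none. Libraries of one condition differed by more than sampling noise (chi-square per degree of freedom 3.52 or more), so none was counted as a duplicate. The limits allowed by a count of 0 cover counting error only. Values of some genes on the pathway and marker lists are not reported here.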

Additional observations from a re-analysis of the deposited data

Results flagged for a closer look

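Among 84 groups of 6 libraries (21 named members in 4 conditions), 5 held a library whose gap to its nearest neighbour was large for the range of the group. The rule flags about 5% of groups by chance, or about 1 in 20. PSMA6 was at 1.95 CPM in the UT_LCL library of replicate 6, with the nearest of the others at 0.970, and at 3.51 CPM in the PGCC library of replicate 6, with the nearest at 2.01. PSMD7 was at 70.1 CPM in the UT_LCL library of replicate 6, below the nearest at 91.0. PSME1 was at 98.9 CPM in the UT library of replicate 5, above the nearest at 88.1. PSMB6 was at 151.1 CPM in the UT library of replicate 4, below the nearest at 179.0.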

How the results depend on the processing

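Across the alternatives, 90 counts of members called lay within 1.5 times the main count and 7 did not. Most of the 90 were 0 against 0 in LCL521 comparisons, which says little about stability. Others counted those of 16 named members that passed an exact permutation test of PGCC against UT. Most of these 16 were chosen by their edgeR change in the same libraries, so these counts say little about stability either. Where members were called, counts moved in PGCC against UT without replicate 3 and in replicates 1, 2, 3 and 6 with the block. In PGCC_LCL against UT_LCL they moved without replicate 1, 2, 3 or 5. Of the values of named members 674 kept direction and side of the threshold, 57 kept the direction but lost the call, 2 gained it and 1 reversed. In PGCC against UT, 16 members were called without a block and 25 in replicates 1, 2, 3 and 6 with the replicate block (64.3% of all genes); leaving out 1 replicate gave 9 to 20 (39.8% to 45.9% of all genes). In PGCC_LCL against UT_LCL leaving out 1 replicate gave 10 to 14 members, against 17 (41.5% to 45.8% of all genes, against 48.9%). In PGCC_LCL against PGCC a gene length offset with the replicate block called 1 member, PSMD14, beside 1.84% of all genes, against 0 members in the main fit. The log2 fold change of PSMB10 was 0.37 in replicates 4 and 5 alone, against -0.35 in all, and in replicates 1, 2, 3 and 6 with the block it was -0.71 and past the threshold. The cause was not tested. The block with the other settings unchanged altered no call of a named member beyond the additions in the report. At most 63 counts in any library limit PSMA2, PSMA6 and PSMB10.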
